A study of Drosophila melanogaster with 19 samples.

Results

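This report describes the comparison of outer photoreceptors of *Drosophila melanogaster* at day 30 (D30) and day 20 (D20) after eclosion, which takes in 6 of the 19 libraries of the series, 3 per age. Every gene that passed the expression filter of edgeR over these 6 libraries was a member, which kept 6380 of the 13929 genes counted. All flies were males kept at 25 degrees C in a cycle of 12 h light and 12 h dark and were collected at Zeitgeber time (ZT) 6. They carried a *UAS-GFP-Msp300KASH* transgene inserted at attP2 together with *rh1-GAL4* and the *ry* allele ry[506] on a *w* background. The *rh1* promoter drives the tag in outer photoreceptors, which limits the model to these cells. Each library was made from 10 ng of nuclear RNA, labelled as retina, after capture of tagged nuclei from the heads of pooled flies. The 3 D20 libraries were deposited in a count table with the light-dark (LD) and constant-darkness (DD) libraries, and the 3 D30 libraries in another table with D40, D50 and D60. Age and table are therefore confounded here, and an effect of age cannot be told apart from any other difference between the 2 tables. Throughout, n = 3 libraries per age, CPM stands for counts scaled to library size (per 1e6) after TMM normalization, errors of fold changes are standard errors, and positive log2 fold changes are higher at D30. The p-values set the difference between the ages against the spread between libraries of the same age, over these 6 libraries only.

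Fly photoreceptors hold their own circadian clock. The transcription factors Clk and Cyc, bound to each other, switch on *per*, *tim*, *vri*, *Pdp1* and *cwo*, whose products feed back on the clock, and the RNAs of these targets rise and fall over the day out of phase with *Clk* RNA. Light sensing runs through a phospholipase C cascade: rhodopsin activates a Gq protein, which activates the phospholipase NorpA, and the TRP and TRPL channels then open. This machinery sits in the rhabdomere, a stack of microvilli built on actin and apical membrane proteins.

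The D20 libraries held 4525799 to 5100377 counts and the D30 libraries 629634 to 803477, and the number of genes with at least 1 count was 9970 to 11100 at D20 and 8530 to 8988 at D30. Low genes were thus measured less precisely at D30. Pearson's r of log2 CPM was 0.987 to 0.991 between D20 libraries. At D30 it was 0.953 between replicates 2 and 3 but 0.921 and 0.917 between replicate 1 and these 2 libraries. Among 1966 tested genes with a D30 mean of at least 50 CPM, D30 replicate 1 lay more than 2-fold from the mean of replicates 2 and 3 for 84 genes, whereas replicates 2 and 3 lay that far apart for 0 genes. For some genes in which D30 replicate 1 stood apart, values are therefore also given without it. Genes without such a value can depend on it too. Leaving it out moved the log2 fold change of *kst* from -0.82 to -0.60 and that of *sr* from 1.29 to 0.94. For *laza* it went from 1.79 to 2.11 and for *Ten-m* from 1.21 to 1.48. Markers of the labelled cell type were abundant: the summed level of 8 photoreceptor markers was 73590 to 76030 CPM at D20 and 50620 to 55570 CPM at D30, with none of them at 0. Fewer photoreceptor nuclei in a sample and less RNA per nucleus cannot be told apart in such bulk data.

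Between D20 and D30, 1355 of the 6380 tested genes changed at a Benjamini-Hochberg adjusted p under 0.05 in edgeR's quasi-likelihood test, which is 21.2%. Of these, 750 (11.8% of the tested genes) were higher and 605 (9.48%) were lower at D30. The changes were mostly moderate: 634 of the higher and 469 of the lower genes passed 1.5-fold, and 71 and 52 passed 4-fold. The median log2 fold change over all tested genes was 0.01. For 697 of the 1355 genes the call was also made in each of the 6 fits that left out 1 library. For 1288 of the 1355 genes the CPM of the D20 and D30 libraries did not overlap, so non-overlap alone sets no called gene apart. Among genes that met the naming rule (at least 50 CPM in the higher group and no overlap), the steepest falls were those of *Cipc*, *tim*, *cwo*, *vri* and *per*, as the plot of fold change against level shows.

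**Figure D1:**
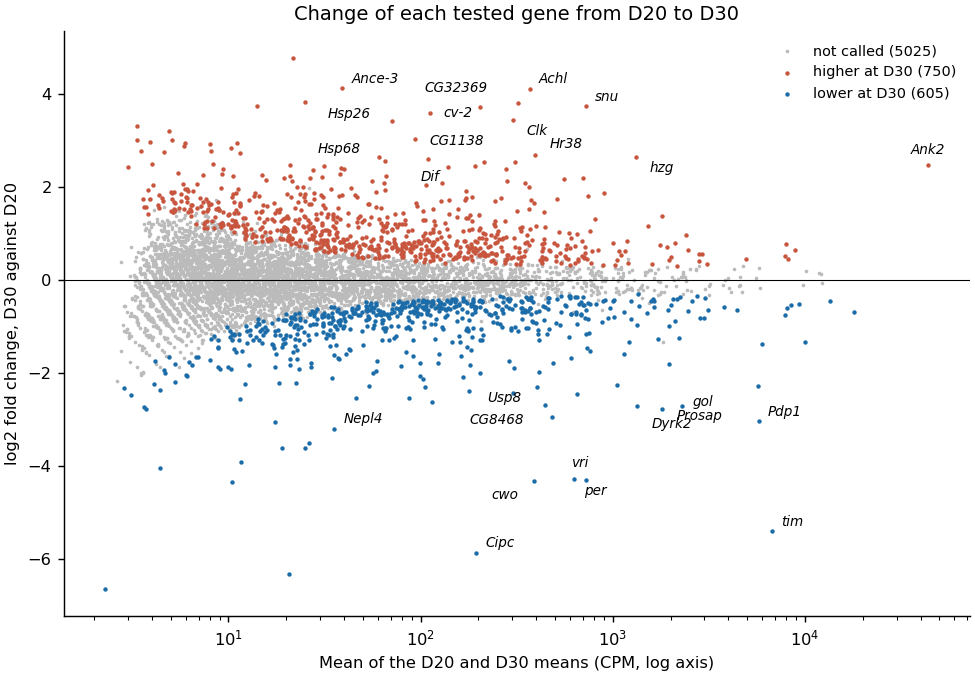
Each point is 1 of the 6380 tested genes, with the mean of the D20 and D30 mean CPM on a log x axis and the log2 fold change of D30 against D20 on the y axis; red points (750) were called higher and blue points (605) lower at D30. The 24 labelled genes of the naming rule show *Cipc*, *tim*, *cwo*, *vri* and *per* below -4, while *Ank2*, labelled in addition, lies farthest to the right. The 2 unlabelled points below -6, *PPO1* and *CG14556*, did not meet the naming rule.

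All 5 Clk:Cyc targets on the list fell (100% called against 21.2% of all tested genes), with a median log2 fold change of -4.30 against 0.01 over all tested genes. The gene *tim* (timeless, 2L:3493986-3508119), whose product binds Per and is degraded in light, read 13478, 12698 and 13274 CPM in the D20 libraries and 366, 278 and 289 CPM in the D30 libraries. Its level was 42.3-fold lower at D30 (log2 fold change -5.40 ± 0.13, edgeR adjusted p = 2.36e-11), and its share of all counts went from 1.30% ± 0.0884 (SD) to 0.0312% ± 0.00554. At D20 *tim* thus ranked among the 5 genes with the most counts, and the D20 and D30 libraries were far from overlapping. Transcripts of *per* (period, X:2685580-2692780), the partner of Tim in the repressor complex, read 1273, 1211 and 1087 CPM in the D20 libraries and 43.3, 74.2 and 65.0 CPM in the D30 libraries (log2 fold change -4.27 ± 0.17, edgeR adjusted p = 9.64e-10). The bZIP repressor gene *vri* (vrille, 2L:5288944-5311223) read 1433, 1405 and 1288 CPM in the D20 libraries and 63.3, 74.2 and 70.8 CPM in the D30 libraries (log2 fold change -4.30 ± 0.13, edgeR adjusted p = 1.33e-10). Their falls were 19.3-fold and 19.7-fold, with the spread of each group small beside the gap. The repressor gene *cwo* (clockwork orange, 3R:10388258-10400752) read 714, 829 and 694 CPM in the D20 libraries and 37.1, 37.1 and 37.6 CPM in the D30 libraries (log2 fold change -4.32 ± 0.15, edgeR adjusted p = 3.03e-10). *Pdp1* (PAR-domain protein 1, 3L:7811458-7867369), which encodes the activator of *Clk*, read 8982, 12302 and 9579.9 CPM in the D20 libraries and 1444, 1101 and 1204 CPM in the D30 libraries, 8.24-fold lower (log2 fold change -3.04 ± 0.15, edgeR adjusted p = 8.08e-09). No target list member overlapped between the ages, as was so for most called genes, and all 5 were called in each fit without 1 library.

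The activator genes moved differently. *Clk* (Clock, 3L:7763233-7775603) read 51.0, 47.8 and 55.2 CPM in the D20 libraries and 593, 508 and 568 CPM in the D30 libraries, so that it was 10.8-fold higher at D30 (log2 fold change 3.44 ± 0.12, edgeR adjusted p = 4.39e-10), opposite to its targets. Its partner *cyc* (cycle) read 32.4, 34.4 and 31.4 CPM in the D20 libraries and 29.4, 12.4 and 20.2 CPM in the D30 libraries and was not called (log2 fold change -0.70 ± 0.25, edgeR adjusted p = 0.068). Without D30 replicate 1, which was close to the D20 level, *cyc* was lower at D30, at a log2 fold change of -1.07 and an edgeR adjusted p of 0.00632. *CG32369*, which lies 1501 bases from *Clk* on the same strand at 3L:7777105-7809825, rose with it, from 44.0, 40.5 and 43.5 CPM at D20 to 542, 670.4 and 584 CPM at D30 (log2 fold change 3.81 ± 0.13, edgeR adjusted p = 3.03e-10). On its other side, 1632 bases away, lies *Pdp1*, which fell. Transcripts of *Cipc*, named after the mammalian CLOCK-interacting pacemaker protein, went from 392, 380.1 and 378 CPM at D20 to 3.09, 8.66 and 7.22 CPM at D30, the steepest fall among genes that met the naming rule, 58.5-fold (log2 fold change -5.87 ± 0.21, edgeR adjusted p = 4.39e-10).

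Of 11 genes for kinases, phosphatases and other modulators of the clock, 3 fell (27.3% called against 21.2% of all tested genes), a share near that of all genes, and the median of the list was 0.03. These were *nmo* (nemo kinase), from 256, 297 and 261 CPM at D20 to 117, 95.2 and 75.1 CPM at D30 (log2 fold change -1.50 ± 0.15, edgeR adjusted p = 1.31e-05), *dco* (doubletime, the casein kinase that phosphorylates Per), from 410.3, 478 and 430.3 CPM at D20 to 229, 198 and 188 CPM at D30 (log2 fold change -1.10 ± 0.12, edgeR adjusted p = 2.6e-05), and *tws* (a regulatory subunit of protein phosphatase 2A), from 576, 679 and 629.9 CPM at D20 to 261, 282 and 367 CPM at D30 (log2 fold change -1.05 ± 0.14, edgeR adjusted p = 9.74e-05). The other 8 were not called. They include the photoreceptor gene *cry* (cryptochrome), at 16.1, 11.1 and 14.1 CPM in the D20 libraries and 26.3, 17.3 and 15.9 CPM in the D30 libraries, whose groups touched (edgeR adjusted p = 0.248). Among 7 tested genes of a list of rhythmic output genes, 2 fell and 3 rose (71.4% called against 21.2% of all tested genes). The steep falls were *Slob*, whose product binds the Slowpoke potassium channel, from 9462, 9737 and 9262 CPM at D20 to 1906, 1990.1 and 1989.8 CPM at D30 (log2 fold change -2.27 ± 0.10, edgeR adjusted p = 2.05e-09), and *Usp8*, a deubiquitinase, from 764, 763 and 778 CPM at D20 to 116, 116 and 123 CPM at D30 (log2 fold change -2.70 ± 0.12, edgeR adjusted p = 2.25e-09). *Rgk1*, a small GTPase gene, rose from 36.0, 35.5 and 34.5 CPM at D20 to 68.0, 109 and 82.4 CPM at D30 (log2 fold change 1.30 ± 0.17, edgeR adjusted p = 0.000113).

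**Figure D2:**
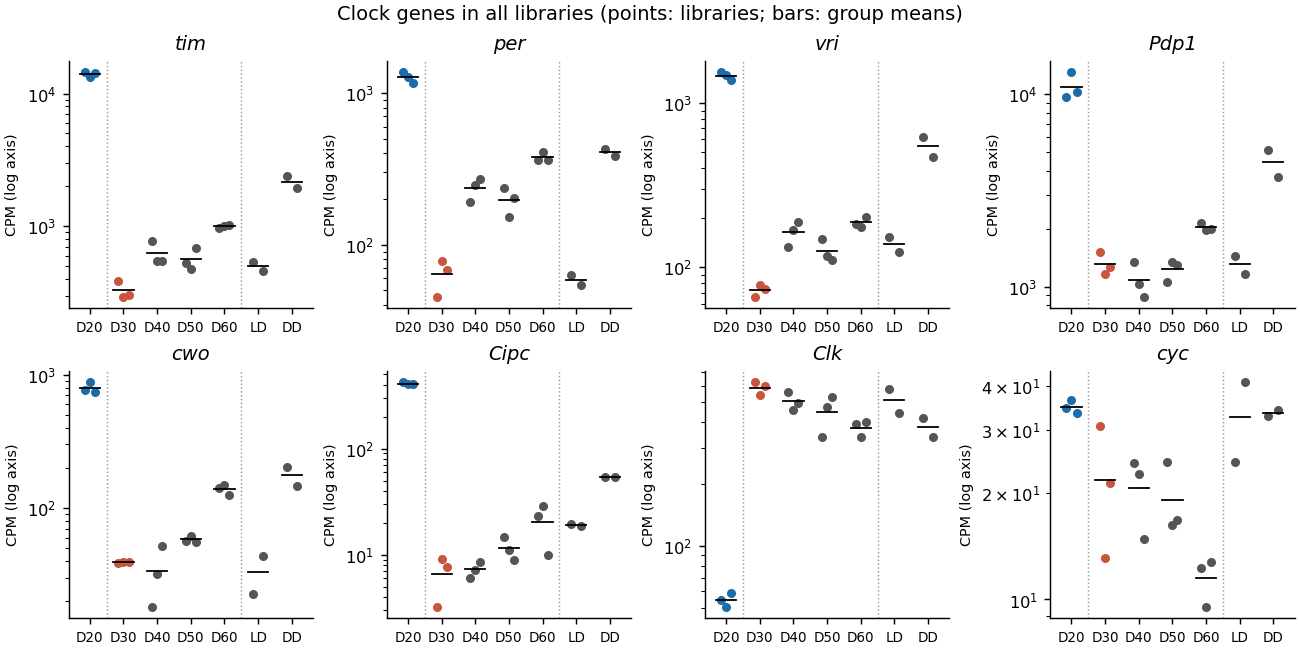
Points are the 19 libraries of the series in 7 groups, bars are group means, and the y axes give CPM on log scales after 1 TMM scaling over all libraries. The 3 D20 libraries lie above every other library for *tim*, *per*, *vri*, *Pdp1*, *cwo* and *Cipc* and below every other library for *Clk*.

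The other groups give the levels of these genes beside both ages. On a common scale over 19 libraries, *tim* read 14460, 13440 and 14180 CPM at D20 and 384, 294 and 304 CPM at D30. At D40 it read 776, 544 and 549 CPM, at D50 529, 473 and 681 CPM and at D60 969, 1011 and 1018 CPM. In the LD libraries, deposited in the same table as D20, it read 537 and 459 CPM, and in the DD libraries 2399 and 1927 CPM. For *tim*, each D20 library thus lay above every other library, those that share its table included. The LD and DD samples have no age entry, and their day marks conflict (D101 in the titles, D10 in the table's headings), so their age is not used here. For *Clk* the order was the reverse: 54.7, 50.6 and 58.9 CPM at D20, 622, 537 and 597 CPM at D30 and 580 and 443 CPM in LD, with every library outside D20 between 337 and 622 CPM. The 12 genes with the largest decrease were higher in each D20 library than in each of the 16 others, and 4 of the 12 with the largest increase were lower in each, where the gap to the D30 libraries was fixed by the naming rule. Of all lower genes 36.0% lay above the 16 others in each D20 library, against 4.34% of all tested genes. Of all higher genes 13.6% lay below them, against 1.77% of all tested genes. The other groups' means lay nearer to D30 than to D20 for 81.3% of the lower genes at D40, 84.0% at D50 and 78.3% at D60, but for 62.0% in LD and 47.6% in DD. For the higher genes these shares were 79.3%, 79.5%, 72.3%, 36.7% and 36.5%. Over all tested genes they were 60.3%, 62.0%, 60.3%, 49.1% and 44.2%. The lower genes in DD were thus close to the share of all genes, and the higher genes lay nearer to D20 in LD and DD, in 63.3% and 63.5% of cases. The genes were chosen on D20 and D30, and D40 to D60 share the table of D30, so these shares are a description and not a test.

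Beside the clock genes, the genes with the largest decrease were *Nepl4*, *CG8468*, *Prosap*, *Dyrk2*, *gol* and *Usp8*. *Nepl4*, of the neprilysin metallopeptidase family, went from 69.0, 61.4 and 62.9 CPM at D20 to 3.09, 11.1 and 5.78 CPM at D30 (log2 fold change -3.20 ± 0.28, edgeR adjusted p = 3.49e-06), and its fall was 14.6-fold without D30 replicate 2 against 9.2-fold with all libraries. *Prosap*, the fly Shank scaffold of synapses, went from 2944, 3565 and 2964 CPM at D20 to 383, 472 and 525 CPM at D30 (log2 fold change -2.78 ± 0.14, edgeR adjusted p = 1.16e-08). *Dyrk2*, a kinase gene, went from 2149.5, 2529 and 2297 CPM at D20 to 279.6, 387 and 390.1 CPM at D30 (log2 fold change -2.72 ± 0.14, edgeR adjusted p = 1.82e-08). That the D20 and D30 libraries did not overlap in these genes was fixed by the naming rule. *gol* (goliath, an endosomal ubiquitin ligase) went from 3829.9, 4098 and 3980.5 CPM at D20 to 590.1, 605 and 630 CPM at D30 (log2 fold change -2.71 ± 0.10, edgeR adjusted p = 7.81e-10), and *CG8468* from 844, 921 and 807 CPM at D20 to 127, 103 and 105 CPM at D30 (log2 fold change -2.95 ± 0.13, edgeR adjusted p = 3.12e-09). Of the 24 genes with the largest changes, 13 overlap another annotated gene, 11 of them on the other strand. As the strand setting of the counting is not given in the sources used here, counts of overlapping genes cannot be assigned to 1 strand.

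The genes with the largest increase did not share 1 function. *Achl* (Achilles, a clock-controlled gene in fly neurons) rose from 40.3, 38.7 and 41.3 CPM at D20 to 889.8, 569 and 634 CPM at D30, 17.3-fold (log2 fold change 4.12 ± 0.17, edgeR adjusted p = 1.56e-09). *snu* (snustorr, an ABC transporter of the cuticle barrier) rose from 97.8, 97.4 and 109 CPM at D20 to 1289.9, 1385 and 1381 CPM at D30 (log2 fold change 3.74 ± 0.12, edgeR adjusted p = 1.33e-10). The BMP-binding protein gene *cv-2* (crossveinless 2) rose from 17.8, 18.1 and 16.3 CPM at D20 to 108, 259.8 and 256 CPM at D30 (log2 fold change 3.59 ± 0.26, edgeR adjusted p = 4.68e-07). In all of them, each D30 library exceeded each D20 library, which the naming rule required. *Ance-3*, of the angiotensin-converting enzyme family, read 4.26, 4.08 and 4.62 CPM in the D20 libraries and 7.72, 106 and 108 CPM in the D30 libraries (log2 fold change 4.12 ± 0.54, edgeR adjusted p = 0.000108). Its rise was thus carried by D30 replicates 2 and 3, and the log2 fold change was 4.58 without D30 replicate 1. *CG1138* rose from 16.7, 26.9 and 17.8 CPM at D20 to 125, 179 and 194 CPM at D30 (log2 fold change 3.03 ± 0.21, edgeR adjusted p = 2.89e-07), and *hzg* (Herzog, a phosphatase) from 339, 406 and 355 CPM at D20 to 1287, 2774 and 2808 CPM at D30 (log2 fold change 2.64 ± 0.23, edgeR adjusted p = 3.28e-06). *Dif*, which encodes an NF-kB factor of the Toll pathway, rose from 34.5, 29.0 and 28.6 CPM at D20 to 212, 171 and 181 CPM at D30 (log2 fold change 2.60 ± 0.14, edgeR adjusted p = 3.19e-08). All 24 genes at both ends were called in each of the 6 fits without 1 library. On the scale over 19 libraries *Achl* read 1119 and 845 CPM in LD, which overlapped D30 (933, 601 and 666 CPM), as the LD libraries did for *Clk*. *Achl* was unlike *Clk* in DD, at 1423 and 1554 CPM against 415.5 and 337.1 CPM for *Clk*. At D60 *Achl* read 139.6, 135 and 142 CPM and *Clk* 391.1, 336.6 and 399 CPM.

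The phototransduction cascade leaned towards lower RNA at D30. Of its 11 tested members 6 fell and 1 rose (63.6% called against 21.2% of all tested genes), with a median log2 fold change of -0.52. The channel gene *trp* read 14743, 14005 and 14366 CPM in the D20 libraries and 4220.5, 6647 and 6309 CPM in the D30 libraries, 2.51-fold lower (log2 fold change -1.33 ± 0.14, edgeR adjusted p = 2.18e-05). *inaF-B*, whose product is needed for TRP function, read 236, 185 and 206 CPM in the D20 libraries and 91.1, 87.8 and 67.9 CPM in the D30 libraries (log2 fold change -1.34 ± 0.15, edgeR adjusted p = 3.31e-05). *Gbeta76C*, the Gq beta subunit of the eye, read 1139, 1169 and 1117 CPM in the D20 libraries and 652, 615 and 569 CPM in the D30 libraries (log2 fold change -0.90 ± 0.10, edgeR adjusted p = 3.85e-05). In each of these genes the highest D30 library stayed below the lowest D20 library. *norpA*, the phospholipase C and the gene with the most counts at D20, read 20586, 24368 and 21939 CPM in the D20 libraries and 10931, 15465 and 15139 CPM in the D30 libraries (log2 fold change -0.69 ± 0.13, edgeR adjusted p = 0.00192). *Ggamma30A* (log2 fold change -0.52 ± 0.12) and *ninaC* (-0.54 ± 0.11), the Gq gamma subunit and the rhabdomere myosin, were lower as well, with edgeR adjusted p values of 0.00591 and 0.00371. The exception was *inaC*, the eye protein kinase C, which rose from 870.2, 948 and 1009 CPM at D20 to 1625, 2377 and 2299 CPM at D30 (log2 fold change 1.16 ± 0.14, edgeR adjusted p = 5.43e-05). *trpl*, the partner channel, read 13303, 11627 and 12409 CPM in the D20 libraries and 12606, 12224 and 11079 CPM in the D30 libraries and was not called (log2 fold change -0.06 ± 0.10, edgeR adjusted p = 0.735). *Galphaq* read 464, 555 and 525 CPM in the D20 libraries and 423, 456 and 462 CPM in the D30 libraries (edgeR adjusted p = 0.233), and the scaffold gene *inaD* 989.6, 1024 and 1045 CPM in the D20 libraries and 989, 1657 and 1504 CPM in the D30 libraries (edgeR adjusted p = 0.0597). The 7 calls of the list were made in each fit without 1 library.

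Rhodopsin genes did not fall as a group. *ninaE*, the Rhodopsin 1 gene of the outer photoreceptors, read 11986, 11934 and 10947 CPM in the D20 libraries and 19724, 9416 and 8835 CPM in the D30 libraries (log2 fold change 0.12 ± 0.23, edgeR adjusted p = 0.754), with D30 replicate 1 above and replicates 2 and 3 below every D20 library. Without that library, *ninaE* was lower at D30 with a log2 fold change of -0.39 and an edgeR adjusted p of 0.000343, so the call turned on 1 library. *Rh3* and *Rh4*, the ultraviolet pigments of the inner photoreceptor R7, which the *rh1* driver does not target, rose from low levels. *Rh4* read 23.4, 13.6 and 18.2 CPM in the D20 libraries and 46.3, 56.9 and 37.6 CPM in the D30 libraries (log2 fold change 1.35 ± 0.25, edgeR adjusted p = 0.00164) and *Rh3* 23.2, 17.2 and 22.0 CPM in the D20 libraries and 47.9, 49.5 and 34.7 CPM in the D30 libraries (log2 fold change 1.08 ± 0.21, edgeR adjusted p = 0.00276). They were the 2 called genes among 7 opsins (28.6% called against 21.2% of all tested genes), and the summed level of 4 inner photoreceptor markers was 58.2 to 81.0 CPM at D20 and 83.8 to 144.7 CPM at D30. The other 2 of these markers were not called and had negative log2 fold changes. *Rh5* read 5.425, 6.566 and 10.55 CPM at D20 and 4.634, 7.421 and 7.225 CPM at D30. *Rh6* read 28.87, 20.83 and 23.52 CPM at D20 and 27.81, 30.92 and 4.335 CPM at D30. Inner photoreceptor opsins thus did not rise as a group. The part of inner photoreceptor RNA in these values was not tested.

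**Figure D3:**
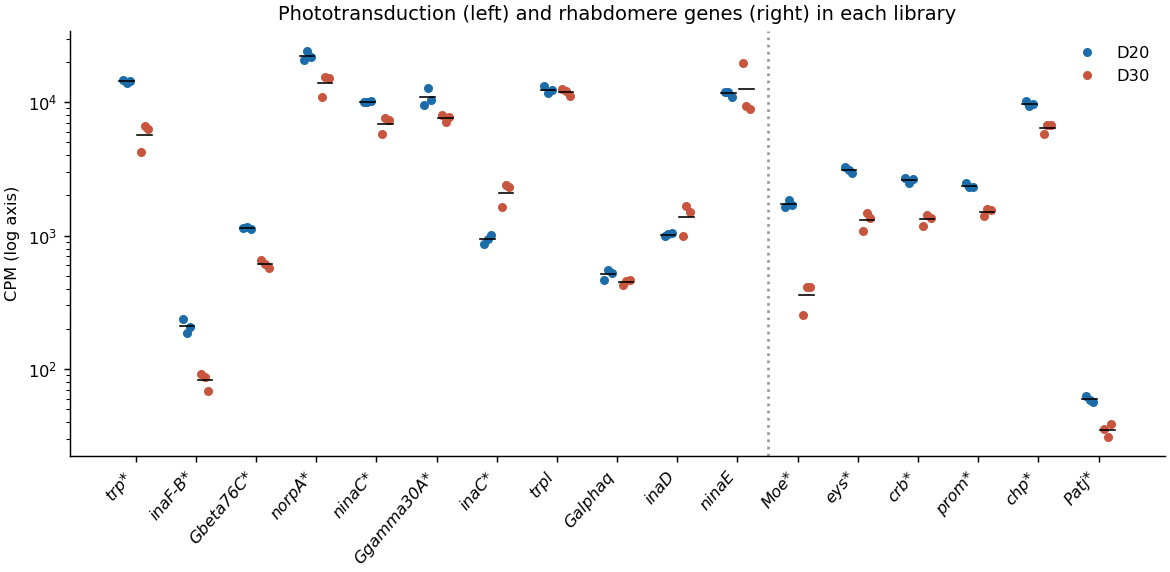
Points are single libraries (blue D20, red D30), bars are group means, the y axis is CPM on a log scale, and an asterisk marks genes with an edgeR adjusted p under 0.05. *trp*, *inaF-B*, *Gbeta76C*, *Moe*, *eys* and *crb* sit lower at D30 without overlap, *inaC* sits higher, and *ninaE* is split by D30 replicate 1.

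Most tested genes of the rhabdomere and apical membrane fell. Of 10 tested members 7 fell (70% called against 21.2% of all tested genes), with a median of -0.62, and all 7 were called in each fit without 1 library. *Moe* (moesin, which links actin to the apical membrane) read 1646, 1864 and 1693 CPM in the D20 libraries and 253, 411 and 413 CPM in the D30 libraries, 4.82-fold lower (log2 fold change -2.27 ± 0.16, edgeR adjusted p = 4.22e-07). *eys* (eyes shut, the matrix protein that keeps rhabdomeres apart) read 3275, 3089 and 2934 CPM in the D20 libraries and 1091, 1474 and 1357 CPM in the D30 libraries (log2 fold change -1.24 ± 0.12, edgeR adjusted p = 8.15e-06). *crb* (crumbs, an apical determinant) read 2692, 2499 and 2669 CPM in the D20 libraries and 1177, 1431 and 1363 CPM in the D30 libraries (log2 fold change -0.98 ± 0.11, edgeR adjusted p = 2.27e-05). All 3 genes had D30 libraries well under the D20 libraries. *prom* (log2 fold change -0.65), *chp* (-0.60), *Patj* (-0.76) and *ninaC* (-0.54) completed the 7. The spectrin gene *kst* of the apical domain went the same way, from 3809, 3758 and 3899 CPM at D20 to 1295, 2753 and 2445 CPM at D30 (log2 fold change -0.82 ± 0.20, edgeR adjusted p = 0.0102), with D30 replicate 1 lowest.

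Light-response partners moved in both directions. Among 8 genes that end the light response (25.0% called against 21.2% of all tested genes, median -0.14), *rtp* (retinophilin) fell from 649.6, 735 and 741 CPM at D20 to 344, 397 and 337 CPM at D30 (log2 fold change -0.98 ± 0.12, edgeR adjusted p = 4.59e-05) and *CaMKII* rose with a log2 fold change of 0.43 ± 0.12 (edgeR adjusted p = 0.0228). The *CaMKII* call was lost in 4 of the 6 fits without 1 library, with edgeR adjusted p values of 0.0755 without D20 replicate 1, 0.0666 without D20 replicate 3, 0.113 without D30 replicate 2 and 0.151 without D30 replicate 3. Of 11 genes of the PIP2 cycle, which regenerates the lipid that NorpA cuts, 4 fell and 1 rose (45.5% called against 21.2% of all tested genes, median -0.25). *rdgB*, the phosphatidylinositol transfer protein, went from 2676, 2830.3 and 2692 CPM at D20 to 1512, 1479 and 1487 CPM at D30 (log2 fold change -0.87 ± 0.10, edgeR adjusted p = 2.47e-05), and *rdgA*, the eye diacylglycerol kinase, from 14558, 17064 and 15147 CPM at D20 to 9587, 12356 and 12303 CPM at D30 (log2 fold change -0.45 ± 0.12, edgeR adjusted p = 0.0134). *laza*, the lipid phosphatase that opposes RdgA, rose from 12.4, 7.92 and 8.13 CPM at D20 to 12.4, 39.6 and 46.2 CPM at D30 (log2 fold change 1.79 ± 0.36, edgeR adjusted p = 0.00324), with D30 replicate 1 inside the D20 range. Histidine decarboxylase (*Hdc*), which makes the photoreceptor transmitter histamine, fell from 456, 426 and 422 CPM at D20 to 315, 229 and 185 CPM at D30 (log2 fold change -0.84 ± 0.16, edgeR adjusted p = 0.00179), as did the histamine transporter gene *lovit*, from 1614, 2046 and 1830 CPM at D20 to 1404, 1283 and 1345 CPM at D30 (log2 fold change -0.45 ± 0.11, edgeR adjusted p = 0.0119). The other 5 of 7 tested histamine genes were not called (28.6% called). Of 7 tested rhodopsin maturation genes 2 fell and 1 rose (42.9% called against 21.2% of all tested genes, median 0.51). The chaperone gene *Cnx99A* fell from 1804, 1675 and 1735 CPM at D20 to 514, 813 and 727 CPM at D30 (log2 fold change -1.34 ± 0.15, edgeR adjusted p = 2.13e-05), and *ninaB*, which makes the chromophore, from 153, 141 and 147 CPM at D20 to 92.7, 109 and 98.3 CPM at D30 (log2 fold change -0.55 ± 0.13, edgeR adjusted p = 0.0074). *ninaD* rose with a log2 fold change of 1.23 ± 0.34 (edgeR adjusted p = 0.0191), a call made in 2 of the 6 fits without 1 library. Among 13 tested photoreceptor transcription factors (38.5% called against 21.2% of all tested genes, median -0.03) 4 fell and *dve* (defective proventriculus) rose, from 246, 241 and 239 CPM at D20 to 436, 512 and 477 CPM at D30 (log2 fold change 0.98 ± 0.11, edgeR adjusted p = 2.68e-05). *gl* (glass) fell from 1205, 1292 and 1140.4 CPM at D20 to 814, 568 and 681 CPM at D30 (log2 fold change -0.82 ± 0.13, edgeR adjusted p = 0.000571), while *onecut*, *Pph13* and *ey* had log2 fold changes of -0.45, -0.43 and -0.61. The calls of *onecut* and *Pph13* were lost in 4 of the 6 fits without 1 library, at edgeR adjusted p values between 0.0675 and 0.107, and *ey* was called in 1 of the 6 fits.

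*Ank2* drew the most counts of all genes at D30, after *norpA* led at D20. Per kb of exon the order differed. At D30 *Ank2* stood at 1584 CPM per kb and *ninaE* at 7971, and at D20 *norpA* stood at 2688 and *ninaE* at 7319. *Ank2* (ankyrin 2, a giant adaptor between membrane proteins and spectrin, 3L:7655389-7718395) read 11350, 16618 and 12261 CPM in the D20 libraries and 43754, 81224 and 98274 CPM in the D30 libraries (log2 fold change 2.47 ± 0.24, edgeR adjusted p = 6.95e-06). Its share of all counts went from 1.32% ± 0.222 (SD) at D20 to 7.41% ± 2.61 at D30, where replicate 1 held the smallest share and replicates 2 and 3 held 8.17% and 9.55%. It rose 5.55-fold, and the gap between the ages exceeded the wide spread at D30. On the scale over 19 libraries *Ank2* read 20080 and 15270 CPM in LD and 24800 and 22050 CPM in DD. It read 61970 to 106300 CPM at D40, 58240 to 95050 CPM at D50 and 78370 to 81210 CPM at D60, which share the table of D30. *beta-Spec*, its spectrin partner, rose from 223, 178 and 222 CPM at D20 to 409, 506 and 429 CPM at D30 (log2 fold change 1.11 ± 0.13, edgeR adjusted p = 4.13e-05). Of the 7 sodium channel and sodium pump genes 5 rose (71.4% called against 21.2% of all tested genes), with a median of 0.57, and 1 was called with all 19 libraries in 1 fit. *Atpalpha*, the catalytic subunit of the sodium pump, rose from 6386, 7114 and 6063 CPM at D20 to 10148, 8488 and 9323 CPM at D30 (log2 fold change 0.52 ± 0.10, edgeR adjusted p = 0.00336), and its partner *nrv3* from 1606, 2285 and 1894 CPM at D20 to 3388, 2715 and 2975 CPM at D30 (log2 fold change 0.65 ± 0.13, edgeR adjusted p = 0.00369). The channel genes *para* and *NaCP60E* had log2 fold changes of 0.57 and 0.58, and their edgeR adjusted p values rose to 0.0603 and 0.0652 without D30 replicate 3. Of 20 adhesion genes 6 rose and 1 fell (35% called against 21.2% of all tested genes, median 0.23), but with offsets for gene length 4 rose and 3 fell at a median of 0.0082. *Fas1* (fasciclin 1) rose from 1524, 1753 and 1578 CPM at D20 to 2812, 3225 and 3468 CPM at D30 (log2 fold change 0.97 ± 0.11, edgeR adjusted p = 3.47e-05), *Fas3* from 15.1, 15.8 and 14.7 CPM at D20 to 26.3, 47.0 and 66.5 CPM at D30 (log2 fold change 1.62 ± 0.26, edgeR adjusted p = 0.000641), and *Ten-m* (a teneurin) from 159, 129 and 150.3 CPM at D20 to 165, 421 and 419 CPM at D30 (log2 fold change 1.21 ± 0.25, edgeR adjusted p = 0.00351), the last with D30 replicate 1 close to D20. Of the calls named by list here, those made in all 6 fits without 1 library were 2 of 5 for sodium channels and pump, 4 of 7 for adhesion, 2 of 5 for vesicle release, 4 of 8 for antioxidant, 2 of 6 for innate immune and 1 of 6 for cytosolic ribosomal protein genes.

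At the synapse, 3 of 17 vesicle release genes rose and 2 fell (29.4% called against 21.2% of all tested genes, median -0.09). *unc-13*, which primes vesicles, rose from 5021, 6999 and 5752 CPM at D20 to 8251, 10400 and 11525 CPM at D30 (log2 fold change 0.76 ± 0.14, edgeR adjusted p = 0.00174), and *comt*, the fly NSF, fell from 86.2, 85.8 and 88.6 CPM at D20 to 58.7, 48.2 and 41.9 CPM at D30 (log2 fold change -0.81 ± 0.16, edgeR adjusted p = 0.00219). The active zone gene *brp* rose with a log2 fold change of 0.46 ± 0.11 (edgeR adjusted p = 0.00902), a call lost without D30 replicate 2 or 3 (0.0725 and 0.0753). Of 10 tested potassium channels 1 fell and 2 rose (30.0% called against 21.2% of all tested genes, median 0.15). *Shal* fell from 187, 204 and 181 CPM at D20 to 153, 92.8 and 111 CPM at D30 (log2 fold change -0.69 ± 0.16, edgeR adjusted p = 0.00724). *Shaw* and *eag* rose by less than 2-fold, and each was called in only 2 of the 6 fits without 1 library. Of 5 genes induced by neuronal activity 3 rose and 1 fell (80.0% called against 21.2% of all tested genes, median 1.03). *Hr38*, the nuclear receptor used as an activity marker in insects, rose from 102, 115.2 and 103 CPM at D20 to 429, 783 and 839.5 CPM at D30, 6.43-fold (log2 fold change 2.68 ± 0.20, edgeR adjusted p = 6.96e-07). *kay* (the fly Fos) rose from 342, 375 and 319 CPM at D20 to 701, 696 and 718 CPM at D30 (log2 fold change 1.03 ± 0.11, edgeR adjusted p = 1.62e-05) and *sr* (stripe) from 55.8, 72.9 and 53.4 CPM at D20 to 210.1, 96.5 and 144 CPM at D30 (log2 fold change 1.29 ± 0.22, edgeR adjusted p = 0.00103). *cbt* (cabut), a zinc finger factor, went the other way, from 277, 298 and 288 CPM at D20 to 127, 96.5 and 131 CPM at D30 (log2 fold change -1.29 ± 0.14, edgeR adjusted p = 1.64e-05). No D30 library overlapped D20 in these 4 genes, as was so for most called genes, and the naming rule required it for *Hr38*. On the scale over 19 libraries *Hr38* read 9.06 and 16.2 CPM in LD and 6.05 and 7.99 CPM in DD, below D20. The groups that share the table of D30 read 380.1 to 957.9 CPM at D40, 561.8 to 1374 CPM at D50 and 756.4 to 820.6 CPM at D60.

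Among 21 tested heat shock factor and chaperone genes 9 rose and 1 fell (47.6% called against 21.2% of all tested genes, median 0.52). With all 19 libraries in 1 fit 4 rose and 0 fell, and with D20 thinned to the D30 depth 6 of 16 tested rose at a median of 0.10. *Hsp26*, a small chaperone, rose from 11.04, 15.2 and 10.99 CPM at D20 to 40.2, 162 and 188 CPM at D30 (log2 fold change 3.41 ± 0.38, edgeR adjusted p = 2.48e-05). *Hsp68*, an inducible Hsp70 family member, read 15.3, 15.4 and 20.0 CPM in the D20 libraries and 20.1, 147 and 146 CPM in the D30 libraries (log2 fold change 2.66 ± 0.42, edgeR adjusted p = 0.00049). Both were low in D30 replicate 1, and without it their log2 fold changes were 3.78 and 3.08. The small heat shock genes *Hsp23* and *Hsp27* rose from under 4 CPM, by 2.95 and 2.93 on the log2 scale. *Hsp83*, the fly Hsp90, rose evenly, from 382, 398 and 405 CPM at D20 to 864, 797 and 722 CPM at D30 (log2 fold change 1.01 ± 0.11, edgeR adjusted p = 2.06e-05), while *Hsf*, the heat shock factor, read 87.0, 98.9 and 92.7 CPM in the D20 libraries and 88.1, 94.0 and 88.1 CPM in the D30 libraries (edgeR adjusted p = 0.863). The *Hsp70* copies are nearly identical and can trade reads: *Hsp70Ab* read 19.4, 46.9 and 20.7 CPM in the D20 libraries and 12.4, 519 and 599.7 CPM in the D30 libraries and *Hsp70Bb* 1333, 2696 and 1416 CPM in the D20 libraries and 1128, 1192 and 1538 CPM in the D30 libraries, the first called higher and the second not called, so values for single copies are uncertain. Of 22 genes of the endoplasmic reticulum stress response 5 fell (22.7% called against 21.2% of all tested genes, median -0.18), a share near that of all genes, among them *crc*, the fly ATF4, from 311, 382 and 350.1 CPM at D20 to 199, 239 and 247 CPM at D30 (log2 fold change -0.60 ± 0.13, edgeR adjusted p = 0.00425). *Sec61alpha*, the channel through which new proteins enter the endoplasmic reticulum, fell from 30.6, 30.6 and 32.7 CPM at D20 to 13.9, 9.9 and 18.8 CPM at D30 (log2 fold change -1.16 ± 0.25, edgeR adjusted p = 0.00502). *ERp60* read 56.4, 45.1 and 46.2 CPM in the D20 libraries and 21.6, 24.7 and 31.8 CPM in the D30 libraries (log2 fold change -0.92 ± 0.21, edgeR adjusted p = 0.00666).

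Antioxidant genes split, 4 up and 4 down of 19 tested (42.1% called against 21.2% of all tested genes, median -0.10), against 4 and 2 by DESeq2 and 2 and 1 with all 19 libraries in 1 fit. The 2 subunits of glutamate-cysteine ligase, which starts glutathione synthesis, moved apart: the modifier *Gclm* fell from 152, 151 and 145 CPM at D20 to 15.4, 30.9 and 28.9 CPM at D30 (log2 fold change -2.55 ± 0.19, edgeR adjusted p = 6.73e-07), and the catalytic subunit *Gclc* rose from 44.4, 46.6 and 43.1 CPM at D20 to 55.6, 131 and 119.9 CPM at D30 (log2 fold change 1.21 ± 0.22, edgeR adjusted p = 0.0016). *cnc*, the fly Nrf2, rose from 196, 234 and 200.9 CPM at D20 to 378, 512 and 493 CPM at D30 (log2 fold change 1.14 ± 0.13, edgeR adjusted p = 4.39e-05). The superoxide dismutase gene *Sod1* read 19.2, 20.1 and 24.2 CPM in the D20 libraries and 15.4, 9.9 and 21.7 CPM in the D30 libraries and was not called (edgeR adjusted p = 0.305). Only 16 of 37 innate immune genes passed the expression filter, of which 4 rose and 2 fell (37.5% called against 21.2% of all tested genes, median 0.29). Beside *Dif*, the related factor *dl* (dorsal) rose from 57.7, 59.5 and 62.4 CPM at D20 to 144, 143 and 152 CPM at D30 (log2 fold change 1.29 ± 0.12, edgeR adjusted p = 6.53e-06), and *cact* (cactus, their inhibitor) by 0.49 on the log2 scale (edgeR adjusted p = 0.039). The *cact* call was lost in 4 of the 6 fits without 1 library, at edgeR adjusted p values from 0.0679 to 0.187. Among 17 tested insulin and TOR genes 3 rose and 2 fell (29.4% called against 21.2% of all tested genes, median -0.01). Of these 5 calls, 2 were made in all 6 fits without 1 library. *InR*, the insulin receptor, rose from 72.3, 82.4 and 88.3 CPM at D20 to 134, 287 and 276 CPM at D30 (log2 fold change 1.53 ± 0.21, edgeR adjusted p = 0.00018), and *Pdk1* fell from 1700, 1879.9 and 1745 CPM at D20 to 687, 986 and 1062 CPM at D30 (log2 fold change -0.96 ± 0.14, edgeR adjusted p = 0.000328). Of 13 tested lipid genes 3 fell and 1 rose (30.8% called against 21.2% of all tested genes, median -0.04): *Acsl* (an acyl-CoA synthetase) fell from 634, 687 and 664 CPM at D20 to 188, 166 and 149 CPM at D30 (log2 fold change -1.98 ± 0.12, edgeR adjusted p = 1.04e-07), *SREBP* by 0.93 and *FASN1* by 0.72 on the log2 scale, and *Hnf4* rose by 1.07.

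**Figure D4:**
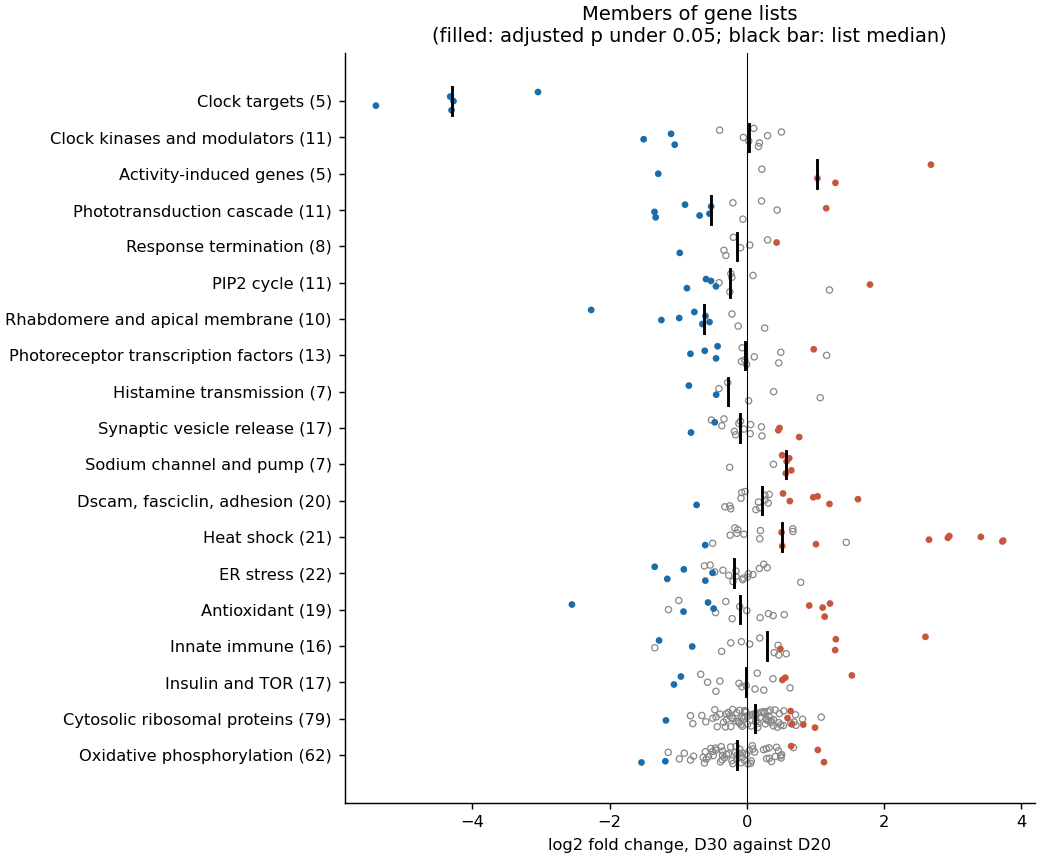
Each point is a tested member of 1 of 19 gene lists (number of tested members in brackets), placed by its log2 fold change of D30 against D20, filled where the edgeR adjusted p was under 0.05, and black bars mark list medians. Clock targets sit at a median of -4.30, rhabdomere genes at -0.62 and phototransduction genes at -0.52, while activity-induced genes lie at 1.03, sodium channel and pump genes at 0.57 and ribosomal proteins near 0.

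Large housekeeping groups moved little. Among 79 tested cytosolic ribosomal protein genes 5 rose and 1 fell, a called share of 7.59% against 21.2% of all tested genes (median 0.12). Of 62 oxidative phosphorylation genes 3 rose and 2 fell (8.06%, median -0.14), with *UQCR-11*, a subunit of complex III, rising from 109, 149 and 126 CPM at D20 to 238, 279.5 and 318 CPM at D30 (log2 fold change 1.13 ± 0.15, edgeR adjusted p = 0.000101). The proteasome subunit gene *Prosalpha3* rose from 12.2, 6.34 and 9.01 CPM at D20 to 29.4, 24.7 and 26.01 CPM at D30 (log2 fold change 1.51 ± 0.30, edgeR adjusted p = 0.00274). Of 33 proteasome genes 1 rose and 1 fell (6.06%), and of 16 autophagy genes *Atg8a* fell, from 71.1, 82.9 and 65.5 CPM at D20 to 49.4, 40.8 and 40.5 CPM at D30 (log2 fold change -0.75 ± 0.17, edgeR adjusted p = 0.00697). Among 17 tested mitochondrial ribosomal protein genes edgeR called 0, with 2 at an unadjusted p under 0.05 and 0 called by DESeq2. Of 72 such genes, 17 passed the expression filter. Of 7 genes for m6A RNA methylation 1 rose and 2 fell (42.9% called against 21.2% of all tested genes, median -0.09), and *Ythdc1*, the nuclear m6A reader, went from 800.1, 809 and 773 CPM at D20 to 647, 440.3 and 383 CPM at D30 (log2 fold change -0.70 ± 0.16, edgeR adjusted p = 0.00651). Among 5 dosage compensation genes (20.0% called) *mle* fell by 0.41 on the log2 scale (edgeR adjusted p = 0.0431), a call lost in 4 of the 6 fits without 1 library, at values from 0.0537 to 0.136.

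Markers of other cell types made up a small part of the libraries and did not move one way. The summed level of 8 glial markers was 192.6 to 212.7 CPM at D20 and 128.2 to 143.1 CPM at D30, and *Eaat1*, the glial glutamate transporter, fell from 117, 122 and 136 CPM at D20 to 60.2, 40.8 and 27.5 CPM at D30 (log2 fold change -1.56 ± 0.20, edgeR adjusted p = 9.41e-05). *Eaat1* was the only 1 of 5 tested glial markers with a negative log2 fold change. The other 4 were positive and not called, and the list median was 0.11, so glial markers did not fall as a group. The 7 hemocyte markers summed to 94.4 to 104.4 CPM and 43.4 to 50.7 CPM, with *Hml* lower (from 60.1, 63.6 and 67.7 CPM at D20 to 21.6, 22.3 and 23.1 CPM at D30, log2 fold change -1.51 ± 0.18, edgeR adjusted p = 5.54e-05) and the hemocyte gene *He* at 0 in all 6 libraries. For the 8 fat body markers the sums were 860.2 to 934.4 CPM at D20 and 364.1 to 872.8 CPM at D30, with D30 replicate 1 at the top, and *Fbp1*, *Yp1* and *Yp2* were at 0 in all D30 libraries. In the D20 libraries they stood at no more than 0.1937, 0.4528 and 0.7749 CPM. *Lsp2*, a storage protein, fell from 40.9, 25.6 and 31.2 CPM at D20 to 4.63, 13.6 and 14.4 CPM at D30 (log2 fold change -1.55 ± 0.35, edgeR adjusted p = 0.00607). Muscle markers were higher: 13 genes summed to 84.9 to 117.6 CPM at D20 and 143.7 to 358.7 CPM at D30, and 4 of 7 tested members were called higher (57.1% called against 21.2% of all tested genes), 1 of them in all 6 fits without 1 library. That was *bt* (bent, the fly projectin), from 16.1, 16.5 and 17.1 CPM at D20 to 29.4, 63.1 and 39.0 CPM at D30 (log2 fold change 1.43 ± 0.25, edgeR adjusted p = 0.00105). *Mhc*, the muscle myosin heavy chain, read 20.9, 13.6 and 23.7 CPM in the D20 libraries and 24.7, 82.9 and 44.8 CPM in the D30 libraries (log2 fold change 1.42 ± 0.33, edgeR adjusted p = 0.00784), a call lost without D30 replicate 2 (log2 fold change 0.82, edgeR adjusted p = 0.13). *Act88F*, *fln* and *TpnC4* of flight muscle were at 0 at D30 and at no more than 0.2264 CPM in any D20 library. Markers of other neurons (12 genes) summed to 265.8 to 297.1 CPM and 231.7 to 332.7 CPM. Among them *bsh* read 0, 1.132 and 0.6593 CPM in the D20 libraries and was at 0 at D30. The 4 cone and pigment cell markers summed to 53.9 to 65.0 CPM and 60.3 to 132.9 CPM, where *Cpr72Ec* rose with a log2 fold change of 1.74 (edgeR adjusted p = 0.00501), a call lost without D30 replicate 3 (0.0692). The 4 antennal markers summed to 36.5 to 39.7 CPM and 12.4 to 44.5 CPM. Among them *Orco* read 0, 0.2264 and 0.6593 CPM in the D20 libraries and was at 0 at D30. At the depth of the D30 libraries, levels as low as those of the markers at 0 can give no counts. Their zeros thus do not show a loss. The part of these cells in the changes above was not tested.

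The share of genes called higher at D30 rose with gene length, but the balance of higher and lower genes did not follow length evenly. In the 1585 tested genes with the longest gene bodies (median 21780 bases) 23.5% were higher and 11.2% lower at D30, and the median log2 fold change was 0.15. The 1588 shortest genes (median 1449 bases) had 5.6% higher and 3.72% lower, with a median of -0.03. The bins between these leaned to lower genes, with 6.82% higher and 10.0% lower in the shorter and 11.1% and 12.7% in the longer. Called shares also rose with mean CPM, from 4.7% higher and 1.38% lower in the lowest bin to 21.1% each in the highest. Intron share gave a similar split, with 22.6% higher and 11.4% lower where introns made up over 57.1% of the gene. Across 6341 genes with a position, Spearman's rho of length and log2 fold change was 0.135, given as a description because genes are not independent replicates. With offsets that removed the length trend, edgeR called 688 higher and 618 lower genes, against 750 and 605 without. Genes on the X chromosome, *per*, *norpA*, *rdgA*, *Moe* and *futsch* among them, were more often lower (13.5%) than higher (8.0%), with a median of -0.17. On the large autosomal arms, 11.5% to 13.7% were higher and 7.25% to 9.69% lower. *futsch*, a microtubule protein chosen for mention after its values were seen, fell from 8493, 8996 and 8448 CPM at D20 to 3532, 3337 and 3075 CPM at D30 (log2 fold change -1.38 ± 0.10, edgeR adjusted p = 4.02e-07).

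**Figure D5:**
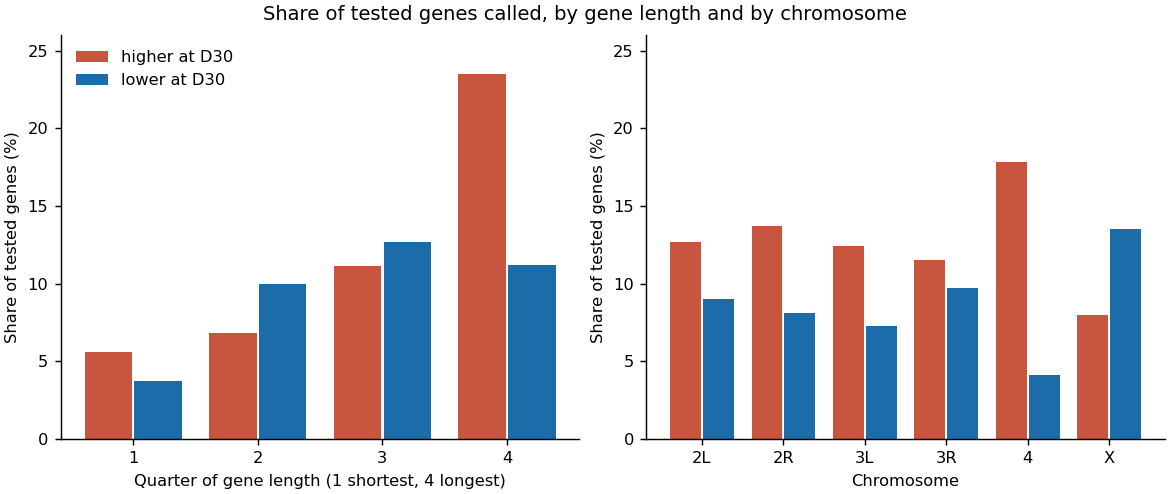
Bars give the share of tested genes called higher (red) or lower (blue) at D30 in % by gene length in 4 bins of like size (left, bin 1 shortest) and by chromosome arm (right). The longest bin reaches 23.5% higher against 11.2% lower, and the X chromosome is the arm where the lower share, 13.5%, exceeds the higher share, 8.0%.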

How the data were processed

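Nuclear RNA of tagged photoreceptors was sequenced, and 6 libraries were compared, 3 at D20 and 3 at D30. Whole-number read counts, not normalized, had been deposited by the authors for each gene in 2 tables, which were joined on the gene identifier. The submitters' processing notes name Trimmomatic, STAR, SAMtools and DESeq2 and the dm6 build, with versions and strand setting not given in the sources used here. Gene positions were taken from the BDGP6 annotation of Ensembl. Counts were filtered with filterByExpr (minimum count 10, minimum total 15), scaled by TMM and tested by quasi-likelihood in edgeR 4.0.16 in R 4.3.3, with Benjamini-Hochberg adjustment over 6380 genes and a threshold of 0.05. The standard error of a log2 fold change was its size divided by the square root of F. Depth was 4525799 to 5100377 counts at D20 and 629634 to 803477 at D30.

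The text names the 12 steepest rises and the 12 steepest falls among called genes with at least 50 CPM in the higher group and no overlap of CPM, the core clock genes, the 5 genes with the most counts per group, and up to 4 members of each list by smallest adjusted p. The comparison, its members and the lists were chosen with earlier results of these data known. *Galphaq*, *Ggamma30A*, *Hsf*, *Hsp23*, *Hsp27*, *Hsp70Ab*, *Hsp70Bb*, *Patj*, *PPO1*, *CG14556*, *Sod1*, *cry*, *ey*, *futsch*, *inaD*, *ninaC* and markers at 0 lie outside this rule and were chosen after their values were seen. The same holds for *Argk1*, *Gpdh1*, *Treh*, *Ogdh*, *kdn*, *Cyp4p1*, *Cyp4p2*, *Cyp4p3*, *Arc1* and *Xrp1*. Alternatives were DESeq2 1.42.0, other scalings and filters, the replicate block, offsets for gene length, all 19 libraries in 1 fit, binomial thinning of D20 to 715124 counts, and leaving out each library. The edgeR script was tested on simulated data. No sequences were used here.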

Additional observations from a re-analysis of the deposited data

How the results depend on the processing

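Direction was kept by every gene that was called both with all 6 libraries and under an alternative. The 1355 calls (750 higher, 605 lower) became 657 (347 higher, 310 lower) with all 19 libraries in 1 fit, and the cause was not tested. Leaving out 1 library gave 894 to 1769 calls, 473 to 878 higher and 398 to 891 lower, with 894 without D30 replicate 3, 907 without D20 replicate 3 and 1769 without D30 replicate 1. These fits tested 4343 to 7673 genes. With D20 thinned to the D30 depth, 958 genes were called of 3870 tested. Without a filter the split was 718 higher and 902 lower. DESeq2 called 1219 genes, of which 1201 were also called by edgeR. *ninaE* ranged from -0.39 without D30 replicate 1 to 0.30 without D30 replicate 3 on the log2 scale.

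With the replicate block 1154 genes were called (640 higher, 514 lower), and with length offsets in addition 997. Deviations of same-numbered libraries correlated at 0.0371, -0.0474 and 0.0236, so the libraries share only a number. Of 123 called named genes, 34 were not called with all 19 libraries in 1 fit and 6 with the block. With D20 thinned, 102 kept the call, 14 lost it and the rest were not tested. Among genes still tested, leaving out 1 library lost from 5 calls (without D30 replicate 1) to 23 (without D30 replicate 2). Depth limits the D30 values of low genes.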

Other observations

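Single genes of energy metabolism outside the lists, chosen after their values were seen, were higher at D30, while of 62 tested oxidative phosphorylation genes 3 rose and 2 fell. Each gene named in this paragraph was called in each fit without 1 library. *Argk1* (arginine kinase, which buffers ATP) rose from 60.1, 63.8 and 53.8 CPM at D20 to 397, 254 and 319 CPM at D30, with a log2 fold change of 2.44 ± 0.16 (edgeR adjusted p = 1.88e-07). *Gpdh1* (glycerol-3-phosphate dehydrogenase) rose from 40.9, 40.3 and 49.0 CPM at D20 to 222, 244 and 234 CPM at D30, a change of 2.43 ± 0.13 (edgeR adjusted p = 2.67e-08), and *Treh* (trehalase, which splits the blood sugar trehalose) from 107, 98.7 and 109 CPM at D20 to 361, 505 and 501 CPM at D30, a change of 2.12 ± 0.14 (edgeR adjusted p = 1.93e-07). The D20 and D30 libraries did not overlap in these genes, as was so for most called genes. Of the citric acid cycle, *Ogdh* (oxoglutarate dehydrogenase) changed by 1.81 ± 0.11 (edgeR adjusted p = 8.36e-08) and *kdn* (citrate synthase) by 1.30 ± 0.16 (edgeR adjusted p = 6.02e-05) on the log2 scale.

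The cytochrome P450 genes *Cyp4p1*, *Cyp4p2* and *Cyp4p3* rose, with log2 fold changes of 2.54, 2.19 and 2.20. *Cyp4p1* went from 90.3, 88.3 and 94.3 CPM at D20 to 263, 670.4 and 647 CPM at D30. As these are members of 1 gene family, the counting could share reads between them. *Arc1*, an activity-regulated gene, rose from 19.8, 18.6 and 24.4 CPM at D20 to 91.1, 105 and 78.0 CPM at D30, by 2.13 ± 0.18 (edgeR adjusted p = 1.94e-06), and *Xrp1*, a stress-induced transcription factor, from 191, 224 and 198 CPM at D20 to 698, 961 and 1092 CPM at D30, by 2.17 ± 0.15 (edgeR adjusted p = 3.79e-07).

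Among low genes, 3 were near absent at D30. *CG14556* had 571 counts over the D20 libraries and 1 over the D30 libraries, a depth-scaled ratio of 85.6 (95% exact interval 15.3 to 3390). *CG15414* had 281 and 2 counts (ratio 21.1, 5.78 to 175) and *CG44521* 306 and 3 counts (ratio 15.3, 5.18 to 74.6). The intervals cover counting error only.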
